A study of Rattus norvegicus with 42 samples.

Results

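The 236 TSS peaks described here were chosen by their level in the slow soleus muscle of rats recovering from hindlimb unloading, out of 9969 peaks outside the mitochondrial chromosome. CAGE (cap analysis of gene expression) sequences the 5′ ends of capped RNAs, so a tag marks where a transcript starts, and a TSS peak is a stretch of 1 strand in which such tags gather. For each peak the tags were divided by the total of the library in the table and given as counts per 1e6 tags (CPM), and r of a soleus group is (mean CPM + 1)/(mean CPM of the soleus controls + 1). A peak was selected when this level (mean + 1) was at least 75% above control after 7 days of recovery, and when r was under 1.5 after 24 hours of recovery and under 1.5 for the mean of the 9 unloading libraries without recovery. In addition (soleus control mean + 1)/(EDL control mean + 1) had to lie between 0.25 and 4. Of the 9969 peaks, 1029 met the first condition, 318 of these also the second, 276 the third and 236 all of them. The levels in the soleus controls, in unloading, at 24 hours and at 7 days of recovery were therefore used for the choice. The levels in unloading, at 24 hours and at 7 days are given below as a description without a test, while the controls also serve as the reference of the tests at 3 days.

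The muscles came from 21 mature Wistar rats, 3 in each of 7 groups, and each rat gave a soleus and an extensor digitorum longus (EDL, a fast muscle), which makes 42 libraries. Control rats moved freely, D1, D3 and D7 rats had hung by the tail for 1, 3 and 7 days, and R1, R3 and R7 rats had been let down for 1, 3 and 7 days after 7 days of hanging. A control group kept for as long as the R7 rats was not analysed here, and no genetic change or drug was part of the design. Rats carry the numbers of the sample titles (U6, U7 and U8 in the controls, U4, U5 and U16 at R3, U12, U13 and U19 at R7), and other rats were taken at each time. Sequencing lanes are known from the library names, and all controls were in lane 1. The soleus R7 libraries were in lanes 5 (U12, U13) and 6 (U19), and the soleus R3 libraries in lanes 4 (U4) and 5 (U5, U16). In soleus the lane therefore cannot be told apart from late recovery against control. Among the EDL libraries only the controls were in lane 1, so within EDL the lane cannot be told apart from any comparison with control. Besides the controls, lane 1 held only the soleus of U24 (D1). In a fit over all 42 libraries with a lane term, a comparison with control rests on that library to separate lane from group. The files do not pair peaks with genes, and an annotation of Rnor_6.0, the build of the coordinates, was not used here. Peaks are therefore named by position, and muscle, fibre type or cell type markers were not checked.

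The soleus holds the body upright and consists mostly of slow, fatigue-resistant fibres. It loses mass when the hindlimbs bear no weight and regains it on reloading, and the load first brings damage and repair and later growth of the fibres and of the connective tissue around them. The EDL lifts the foot and is less affected by unloading. A gene can have several TSS peaks, and CAGE tags also gather inside the exons of strongly transcribed genes, so several peaks in a row on 1 strand can belong to 1 gene. In a whole muscle, more RNA per cell and more cells of a type cannot be told apart.

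The selected peaks were weak in untreated soleus. The rule divides by the level of the soleus controls, so this describes the choice. The median of their mean level was 3.68 CPM in the soleus controls and 11.9 CPM at R7, compared with 11.8 and 11.5 CPM over all peaks, and 145 of them (61.4%, compared with 20.9% of all peaks) had under 5 CPM in the controls. The r of R7 ran from 1.751 to 19.8, with a median of 2.41 and quartiles of 1.94 and 4.08. R7 was the highest of the 7 soleus groups in 202 peaks and R3 in 28, and D7 was the lowest in 104. At R3, which the rule did not use except through the shared controls, the median r was 1.74 (0.686 to 6.36). The R3 mean lay between those of R1 and R7 in 198 peaks, the R3 level was at least 75% above control in 114, and at the median peak the R3 mean had covered 43.1% of the distance from control to R7.

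The rats of the R7 group differed widely, and this comes before any result. The median ratio of a peak to the soleus control mean was 4.31 in U12 and 2.17 in U13, but 0.829 in U19, below the level of the controls. In U12 218 of the 236 peaks were at least 75% above the control mean and 227 lay above all 3 controls. The corresponding numbers were 167 and 211 in U13, and 26 and 50 in U19. Of all 9969 peaks, 44.8%, 25.7% and 17.9% lay above all 3 controls in U12, U13 and U19. The 50 peaks of U19 (21.2%) were thus a share close to that background. Over all 9969 peaks the median ratios were 1.09, 0.939 and 0.784. The libraries of U12, U13 and U19 held 9734931, 11585619 and 5198169 tags, with 3.20%, 4.505% and 6.65% of them mitochondrial and 93.6%, 92.8% and 83.1% in the peaks of the table. Whether depth, the mitochondrial share or the share in peaks had a part in the low values of U19 was not tested. Whether this library is of an R7 soleus, as its label says, could not be settled from the labels either, and every R7 mean below includes it. Without U12 R7 was at least 75% above control in 99 of the 236 peaks (median r 1.62), without U13 in 206 (2.52) and without U19 in 227 (3.19), and it held without each of them in turn in 76. A high level late in recovery was thus a feature of U12 and U13 and not of U19 for most of these peaks.

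**Figure D1:**
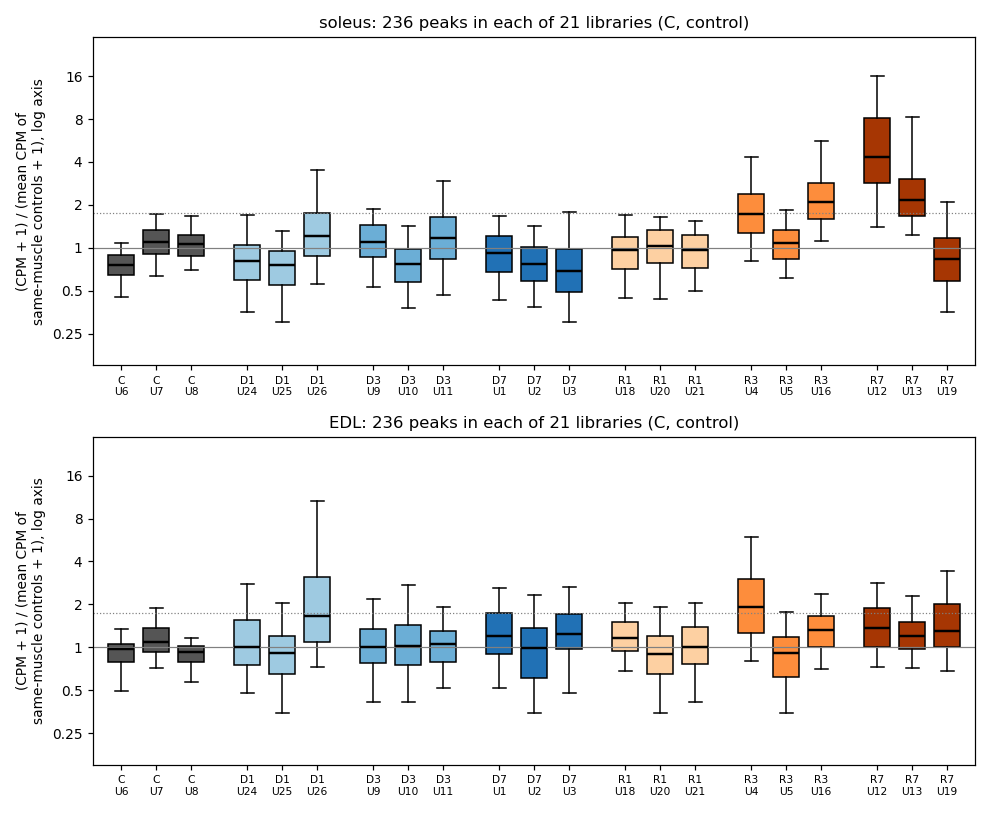
Level of the 236 peaks in each library, as (CPM + 1)/(mean CPM of the controls of the same muscle + 1) on a log axis, soleus above and EDL below. Boxes span the quartiles with a line at the median, whiskers the 5th to 95th percentile, the solid line is the control level and the dotted line 75% above it; the medians of soleus R7 are 4.31 (U12), 2.17 (U13) and 0.829 (U19), and those of soleus R3 1.74 (U4), 1.07 (U5) and 2.09 (U16).

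At R3 the rats differed too. The median ratio was 1.74 in U4 and 2.09 in U16 but 1.07 in U5, and U5 was the lowest of the R3 libraries in 193 of the 236 peaks. In the EDL of the same rats U5 was again the lowest, in 167 peaks, with medians of 1.90 (U4), 0.908 (U5) and 1.31 (U16) against the EDL controls. The soleus R3 libraries U4, U5 and U16 had 4.71%, 5.16% and 6.26% mitochondrial tags and 93.7%, 94.9% and 79.4% of the tags in peaks, and U5 was the deepest of them, with 16552217 tags beside 7628300 in U4 and 8973186 in U16. Whether the depth had a part in its low soleus values was not tested. In EDL U5 had the highest mitochondrial share (10.1%, beside 6.69% in U4 and 8.30% in U16) and the lowest share in peaks (77.1%, beside 94.0% and 81.8%), and whether these had a part in its low EDL values was not tested. Among the rats taken during unloading, U26 (D1) had the highest medians, 1.204 in soleus and 1.66 in EDL. The 3 R1 rats were alike, with soleus medians from 0.956 to 1.02.

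The highest ratio was found at a peak 278 nt wide on the plus strand at chr10:92628216-92628493 (r 19.8). It held 4.81, 0.536 and 31.2 CPM in the control soleus of U6, U7 and U8 and 669.6, 108 and 1.51 CPM in the R7 soleus of U12, U13 and U19. At R3 it held 104, 20.3 and 42.2 CPM in U4, U5 and U16. U12 and U13 lay above every control and U19 below U6 and U8, and the R3 rats U4 and U16 were above the controls while U5 was within their range. In EDL the same peak held 0.187, 18.5 and 0.602 CPM in the controls and 7.41, 5.09 and 9.57 CPM at R7, so the R7 levels of EDL lay inside the range of its controls.

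A second peak, 86 nt wide on the plus strand at chr11:74041052-74041137 (r 12.2), was almost empty before recovery. It held 0.0719, 0.134 and 0.586 CPM in the controls, 0.428, 0.638 and 0.438 at R1, 4.27, 1.21 and 6.55 at R3 and 38.4, 4.79 and 0.252 at R7. Every R3 library was above every control library here, and at R7 U12 and U13 were above and U19 within the controls. On the minus strand at chr1:215829345-215829798 a peak of 454 nt held 5.68, 2.54 and 12.2 CPM in the controls and 184, 26.2 and 1.76 CPM at R7 (r 9.204). U12 and U13 were above every control and U19 below them, and without U12 its r was 1.92.

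Peaks high in both U12 and U13 included 2 on chromosome 6. A narrow peak of 14 nt on the plus strand at chr6:113624647-113624660 held 0.216, 2.68 and 0.586 CPM in the controls, 1.03, 0 and 3.35 at R3 and 53.1, 21.3 and 0 at R7. The EDL of the same R7 rats held 11.9, 7.33 and 0.588 CPM, compared with 0.374, 1.397 and 0.401 in the EDL controls, so it was high in both muscles of U12 and of U13 and low in both muscles of U19. The other, 42 nt wide on the plus strand at chr6:133658922-133658963, held 1.65, 0.669 and 6.59 CPM in the controls and 67.3, 58.5 and 1.01 at R7. There the R3 level, 2.799, 0.606 and 4.11 CPM, overlapped the controls, as did U19, and the EDL at R7 held only 0.411, 2.65 and 1.43 CPM.

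Among the selected peaks with the highest level at R7, the strongest was on the plus strand at chr7:120152894-120153199, 306 nt wide. Its level was 294, 389 and 416 CPM in the controls, 429.6, 487 and 443 at R1, 1227, 640.1 and 865 at R3 and 2125, 1033 and 336 at R7. All libraries of R1 and R3 lay above all controls, whereas at R7 U19 was within them. In EDL the R3 rat U4 stood out with 1166 CPM beside 227, 245 and 249 in the EDL controls.

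A peak on the minus strand at chr9:82419216-82419406, 191 nt wide, was low in unloading and high in recovery. Its soleus level was 279, 249.6 and 254 CPM in the controls, 54.3, 36.8 and 31.7 at D1, 97.03, 102 and 107 at D3 and 163, 193 and 216 at D7. It was then 212, 462 and 303 CPM at R1, 584, 418 and 496 at R3 and 300.4, 723 and 478 at R7. Every unloading library lay below every control and every R3 and R7 library above every control, and at R7 U13 and U19 were higher than U12. EDL took another course at this peak, with 341, 286 and 392 CPM in the controls, 551, 488 and 492 at D3 and 201, 284 and 256 at R7.

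Of the 8 peaks with the highest R7 mean, the one with the least spread between the R7 rats lay on the plus strand at chr1:226256124-226256244 and was 121 nt wide. It held 119, 135 and 135 CPM in the controls, 353, 239 and 202 at R3 and 258, 267 and 235 at R7, and all rats of R3 and R7, U19 included, were above all controls. The D7 soleus, with 224, 152 and 178 CPM, was above the controls as well. A peak of 436 nt at chr3:113415612-113416047 on the plus strand held 153, 174 and 328 CPM in the controls, 436, 361 and 432 at R3 and 752, 416 and 231 at R7. Its R3 rats were all above the controls, and at R7 U19 was not. The lowest of the 8, on the minus strand at chr17:11939997-11940035 and 39 nt wide, held 50.3, 88.5 and 88.95 CPM in the controls and 224, 107 and 106 at R7, with every R7 rat above every control.

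**Figure D2:**
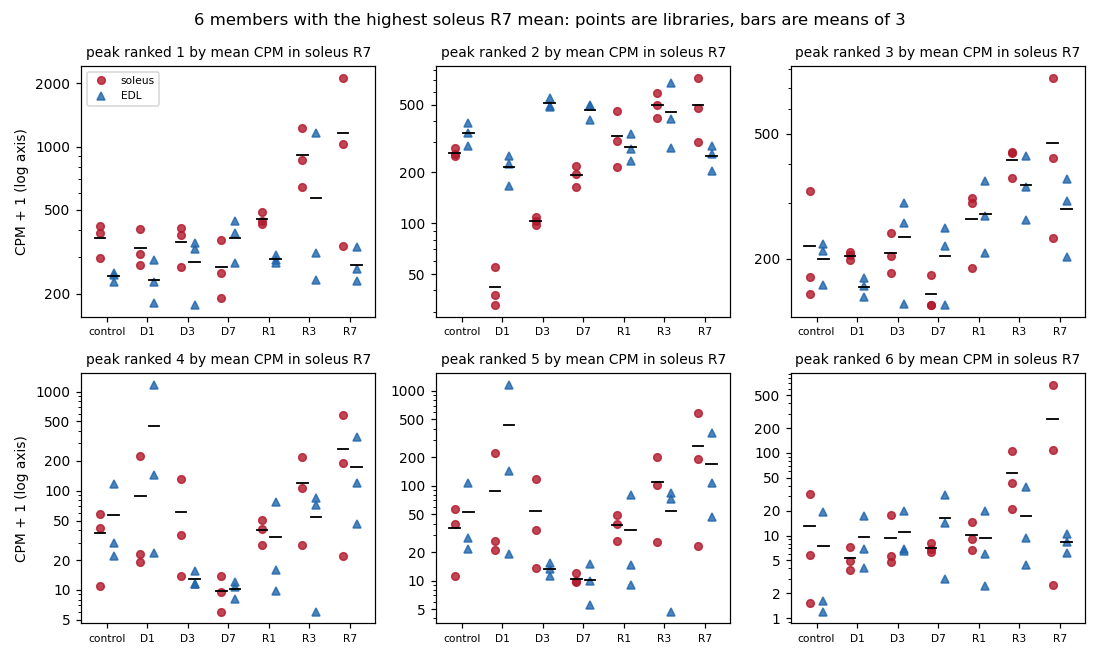
CPM + 1 on a log axis in every library for the 6 selected peaks with the highest mean at soleus R7; circles are soleus and triangles EDL libraries, bars the mean of 3 rats. Peaks 4 and 5 are a pair on chromosome 4 that may share reads. In peak 1 the soleus R7 rats lie between 336 and 2125 CPM, with the lowest inside the range of the controls.

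The order of the R7 rats was the same over most peaks, U12 above U13 above U19 in 180 of the 236. U12 was the highest in 187, U13 in 36 and U19 in 13, and U19 was the lowest in 210. In the 187 peaks led by U12 the median ratios of U12, U13 and U19 were 4.75, 2.08 and 0.755. In the 36 peaks led by U13 they were 2.18, 3.51 and 1.23, and these peaks included a row of neighbours on chromosome 10 and another on chromosome 15 that are described below. The 13 peaks led by U19, with 1.348, 1.77 and 2.87, were narrow, with a median width of 52 nt. The EDL of the same rats did not repeat this order, since U19 was the highest EDL library at R7 in 94 peaks, U12 in 91 and U13 in 51.

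**Figure D3:**
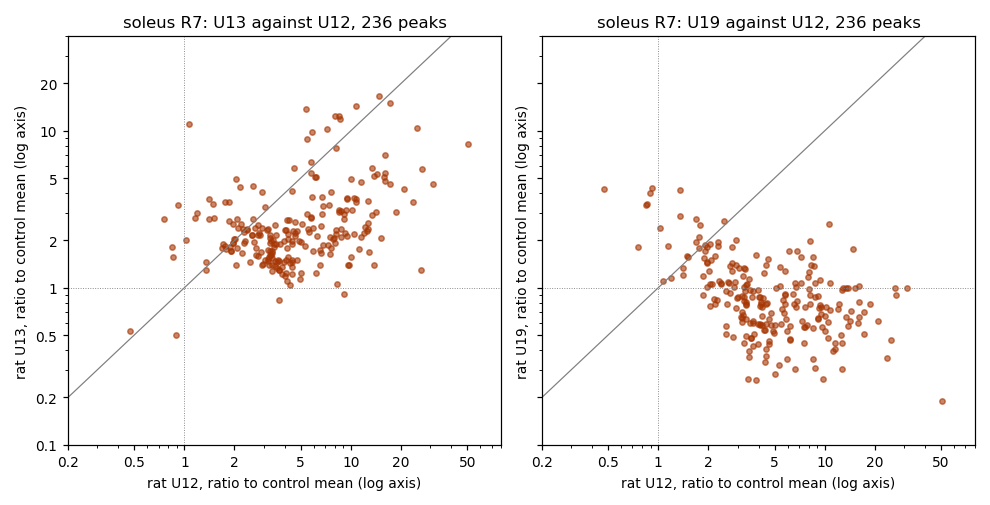
Ratio to the soleus control mean, on log axes, of the 236 peaks in the R7 rat U13 (left) and U19 (right) against U12; each point is a peak, the solid line marks equal ratios and the dotted lines a ratio of 1. The medians are 4.31 in U12, 2.17 in U13 and 0.829 in U19, so most points lie under the diagonal, and many U19 points lie under 1.

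In 34 peaks 1 rat gave over 80% of the summed R7 level, and in 7 peaks over 90%. The extreme was a peak of 35 nt on the plus strand at chr3:17866818-17866852, with 223 tags (25.3 CPM) in U12, 3 tags in U13 and 0 in U19, 0 tags in the soleus controls and 9 tags in the other 36 libraries together. Another 3 peaks had 0 tags in the soleus controls and were led by U12 in the same way: chr13:77896706-77896779 with 112, 4 and 0 tags in U12, U13 and U19, chr3:16999721-16999746 with 104, 7 and 0, and chr8:94423947-94424076 with 125, 11 and 0. One peak was led by U13 in both muscles. It spanned 14 nt on the minus strand at chr5:143826706-143826719 and held 0.682, 16.5 and 0.755 CPM in the R7 soleus and 0.411, 7.73 and 0.168 CPM in the R7 EDL of U12, U13 and U19.

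In 42 of the 236 (17.8%) every R7 library lay above every control, beside 6.87% of all peaks. The rule used this contrast, so the count describes the choice and was not tested.

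The R3 rats were not part of the choice, although the controls they were compared with were. By edgeR's quasi-likelihood test across all peaks (called at an adjusted p under 0.05 and a change of more than 2.38-fold), 2 of the 232 peaks that passed the filter on low counts were called higher at R3 than in control, beside 1.22% of all peaks, a share close to that background. DESeq2 called 12 of the 236 higher, beside 2.87% of all peaks. At an unadjusted p under 0.05, 51 were higher and 0 lower, beside 12% of all peaks higher and 10.2% lower. The 51 became 22, 49 and 45 of 233 without controls U6, U7 and U8. They became 28, 71 and 32 of 233 without the R3 rats U4, U5 and U16. The all-peak number higher went from 1178 to 751, 1111, 972, 765, 1187 and 1022 with these libraries left out in the same order. The median log2 fold change was 0.92, with all 236 peaks kept as well as after the filter, compared with 0.00 over all peaks. With the lane as a term in a fit over all 42 libraries, chosen after seeing the data, 0 were called and the median log2 fold change was 0.06. In 67 of the 236 (28.4%) every R3 library lay above every control, beside 18.9% of all peaks. The rule favoured peaks in which these same control libraries were low, so the excess of higher over lower values at R3 is in part fixed by the choice, and nothing is read from these counts and medians.

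The called peaks were narrow and moderate in level. At chr1:264609998-264610021 on the minus strand, 24 nt wide, soleus held 8.84, 8.84 and 12.7 CPM in the controls, 49.6, 22.2 and 15.7 at R3 and 35.3, 23.3 and 13.8 at R7 (R3 against control: log2 fold change 1.41, SE 0.373, edgeR adjusted p = 0.0497). At chr5:137350482-137350520 on the plus strand, 39 nt wide, it held 30.5, 25.97 and 29.7 CPM in the controls, 111, 66.1 and 49.1 at R3 and 81.2, 63.6 and 37.3 at R7 (log2 fold change 1.27, SE 0.335, edgeR adjusted p = 0.0494). In both the R3 rats were all above the controls, U4 was the highest and the R3 mean exceeded the R7 mean. Both calls were at the edge of the threshold: 0 peaks were called without control U6, U7 or U8 or without the R3 rat U4, 1 without U5 and 2 without U16. Without U6, U7, U8 or U4 edgeR called 0 of all peaks (9869 to 9874 tested), so the zeros are not particular to these peaks. The peak called without U5 was neither of these, since both missed the threshold there (edgeR adjusted p = 0.0567 and 0.0689).

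The EDL of the same animals gives a comparison that shares no library with the rule. It is not independent of the choice, because the rule used the soleus of these same D7 and R7 rats. At D7, the end of unloading, and at R7 the median of the mean EDL level of the selected peaks was 2.89 and 3.95 CPM. In 48 of the 236 peaks (20.3%) every EDL R7 library lay above every EDL D7 library, beside 4.69% of all peaks, and the ratios of (mean + 1) in these 48 ran from 1.199 to 16.7 with a median of 2.59. They are not 48 independent cases. Counting neighbours within 20 kb on 1 strand and pairs that may share reads once, they came from 34 places, compared with 186 places for all 236 peaks. Over all 236 peaks the median ratio was 1.12, so most did not share this difference.

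By edgeR 1 of the 187 selected peaks tested in EDL was called higher at R7 than at D7, beside 0.3% of all peaks. At an unadjusted p under 0.05, 44 were higher, beside 4.57% of all peaks, and 15 were lower, beside 5.68%. Without U19 30 of 194 were higher, beside 445 of all 9415 peaks. The median log2 fold change was 0.32 (0.26 over the 235 peaks tested without the filter), compared with 0.00 over all peaks. DESeq2 called 16, 14 of them higher, beside 0.963% of all peaks called higher. With the lane as a term the median was 0.61 and 0 were called, beside 2 of all 9341 peaks. The called number was 0 without the D7 rats U1 or U3 or the R7 rat U13, and 2 without U19. Among all peaks 71 of 9341 were called, and 23, 40, 1 and 63 without U1, U3, U13 and U19. The 0 without U13 is thus not particular to the selected peaks.

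**Figure D4:**
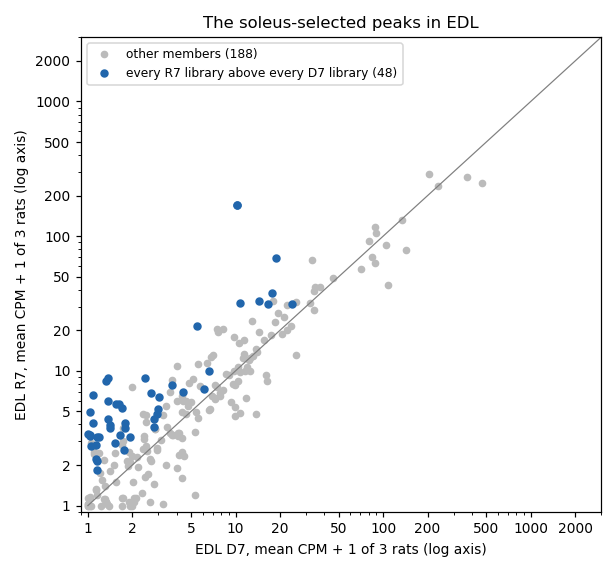
Mean CPM + 1 of the 236 peaks in EDL at D7 and at R7, on log axes, 3 rats each; the line marks equal levels. Filled blue points are the 48 peaks in which every R7 library lay above every D7 library, with ratios from 1.199 to 16.7, and grey points the other 188.

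The peak that passed in EDL was 39 nt wide, on the minus strand at chr12:22478763-22478801. It held 23.5, 9.08 and 15.3 CPM in the EDL controls, 1.98, 1.78 and 9.91 at D1, 5.09, 4.22 and 4.16 at D7 and 13.99, 33.6 and 14.4 at R7. Every R7 library was above every D7 library (log2 fold change 2.20, SE 0.408, edgeR adjusted p = 0.0129). The same peak fell by 1.597 on the log2 scale at D1 (SE 0.411, edgeR adjusted p = 0.0354) and by 2.10 at D7 (SE 0.407, edgeR adjusted p = 0.0161) against the EDL controls. With the lane term over 42 libraries none of these 3 calls held, and the D7 difference changed its direction (log2 fold change 0.13). The median SE of the selected peaks for D7 against control was 1.57 in that fit, beside 0.65 without the term. In soleus, where the controls held 4.38, 2.54 and 4.98 CPM and the R7 rats 19.7, 12.4 and 3.02, U12 and U13 were above the controls and U19 was not.

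The largest EDL differences between D7 and R7 did not pass edgeR's threshold but were called by DESeq2. At chr10:82747446-82747599 (plus strand) EDL held 0.1497, 0 and 0.0815 CPM at D7 and 5.76, 2.03 and 9.15 at R7 (log2 fold change 5.90, edgeR adjusted p = 0.0514). At chr4:29529581-29529875 (plus strand) it held 14.1, 4.54 and 8.88 CPM at D7 and 107, 46.2 and 354 at R7 (log2 fold change 4.28, edgeR adjusted p = 0.102). At chr10:82757458-82757576 and chr10:82760096-82760341, on the same strand, it held 0.449, 0.324 and 0.326 and 0.749, 0 and 0.245 CPM at D7 and 5.35, 3.87 and 14.3 and 4.53, 3.26 and 14.6 at R7. At these 4 every R7 rat was above every D7 rat, and U19, the lowest rat in soleus, was the highest in EDL. Every D7 level at the chromosome 10 peaks was under 1 CPM, so the log2 fold change of 5.90 is a ratio to values near 0. The chromosome 10 peaks lie in 1 run of 12 and are not independent of each other. The peak on chromosome 4 belongs to a pair that may share reads. The controls of EDL varied too, with 20.4, 106 and 27.3 CPM at the peak on chromosome 4. At the other end, a peak of 466 nt on the minus strand at chrX:159171073-159171538 held 15.4, 18.5 and 4.24 CPM at D7 and 5.35, 3.05 and 3.02 at R7, with overlapping groups (log2 fold change -1.88, edgeR adjusted p = 0.427). It is among the few peaks led by U19 in soleus, with 5.79, 13.7 and 26.2 CPM at R7. A peak of 533 nt on the plus strand at chr15:58657428-58657960 was also lower, with 10.3, 10.7 and 5.79 CPM at D7 and 3.703, 4.68 and 2.602 at R7 (log2 fold change -1.36, edgeR adjusted p = 0.393), and there every R7 library lay under every D7 library.

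Between EDL R3 and D7 edgeR called 0 of the 187 peaks, beside 0.0749% of all peaks called higher, and DESeq2 called 4, all higher, beside 0.562%. At an unadjusted p under 0.05, 34 were higher, beside 4.89% of all peaks, and 3 lower, beside 5.3%. These values rested on single rats, and those over all peaks moved with them. Without U5 4 of 200 peaks were called and 67 were higher at an unadjusted p under 0.05. Without U4 8 of 198 were higher, and the median log2 fold change fell from 0.53 to 0.05. Without the D7 rat U3 19 of 194 were higher. Among all peaks 53 of 9479 were called and 600 were higher without U5. The all-peak number higher was 295 of 9459 without U4 and 296 of 9412 without U3, compared with 457 of 9341 with all libraries. Against the EDL controls, edgeR called 0 of the 187 peaks at R1, R3 and R7, as it called 0 of all 9341 peaks, and DESeq2 1, 2 and 0, beside 0.261% of all peaks at R1 and 0.802% called higher at R3. At an unadjusted p under 0.05, 16 were higher at R7, beside 2.62% of all peaks, and 40 at R3, beside 9.01%, while 7 differed at R1, beside 9.63%. The 7 at R1 became 22 of 194 without U18, 4 of 194 without U21 and 17 of 187 without normalization factors. Among all peaks 900 of 9341 differed at R1, and 1361 of 9415, 480 of 9411 and 1112 of 9341 in these settings. The 40 at R3 became 9 of 198 without U4, with a median log2 fold change of 0.08 in place of 0.50. They became 62 of 200 without U5 and 19 of 194 without control U6. The all-peak number higher at R3 went from 842 of 9341 to 194 of 9459, 1029 of 9479 and 507 of 9419. The 16 at R7 became 36 of 200 without control U7, 9 of 194 without control U6 and 10 of 199 without U12. The all-peak number higher at R7 went from 245 of 9341 to 246 of 9477, 155 of 9419 and 99 of 9476. In 38 of the 236 peaks (16.1%) every EDL R3 library lay above every EDL control, beside 13.9% of all peaks, a share close to that background. The EDL controls entered the rule through the muscle ratio. With the lane term over 42 libraries the median log2 fold change of EDL R7 against control went from 0.57 to -0.18 and that of R3 from 0.50 to 0.07.

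In EDL, unlike in soleus, the rule did not use the unloading libraries. Their reference here, the EDL controls, entered it through the muscle ratio and came from the same rats as the soleus controls. The counts against these controls are therefore not free of the choice. At D1 edgeR called 10 of the 187 peaks higher, beside 1.92% of all peaks, and 1 lower, beside 1.24%, the peak at chr12:22478763-22478801 given above. The 10 lay in 8 runs of peaks less than 20 kb apart on 1 strand, and 2 of these runs covered the same stretch on opposite strands. At an unadjusted p under 0.05, 44 were higher at D1 (in 29 runs, counting peaks that may share reads once), beside 8.61% of all peaks. This became 25 of 191 without U26 and 27 of 194 without control U6. The all-peak number higher at D1 went from 804 of 9341 to 1073 of 9409 and 566 of 9419. The number called in either direction, 11, rested on single libraries: it was 0 with the lane term over 42 libraries, 0 without control U6 or U8, 15 without control U7, and 6 without each of U24, U25 and U26. Over all peaks 295 were called, and 5 of 9944 with the lane term. It was 94, 110 and 225 without control U6, U8 and U7, and 246, 84 and 452 without U24, U25 and U26. The peak of 177 nt on the plus strand at chr12:13108911-13109087 held 0, 0.698 and 0 CPM in the EDL controls, 14.5, 19.1 and 12.99 at D1 (edgeR adjusted p = 0.008305) and 14.8, 17.9 and 7.695 at D3 (adjusted p = 0.0254). All D1 and D3 libraries were above the controls, while in soleus no library of any group exceeded 4.78 CPM. A pair of called peaks on chromosome 10 lay on opposite strands over the same stretch. chr10:40742438-40743494 on the minus strand held 17.1, 68.1 and 16.5 CPM in the EDL controls and 85.7, 38.2 and 505 at D1, and chr10:40742453-40743329 on the plus strand 2.71, 2.09 and 3.01 and 19.1, 11.1 and 31.8. U26 was the highest D1 rat at both, and on the minus strand the D1 library of U25 lay within the controls.

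At D3 4 peaks were called higher in EDL, beside 1.02% of all peaks. The largest besides the one just given lay on the minus strand at chr11:44221877-44222067, with 0.187, 0 and 0.201 CPM in the EDL controls and 9.12, 19.4 and 1.76 at D3 (edgeR adjusted p = 0.00729). Its soleus held 2.52, 2.14 and 3.22 CPM in the controls and 15.1, 13.99 and 4.03 at R7, all above the controls. On the plus strand at chr7:83348578-83348798 EDL held 27.1, 27.6 and 29.5 CPM in the controls, 116, 166 and 86.3 at D3 (log2 fold change 1.90, edgeR adjusted p = 0.00927) and 142, 82.7 and 94.4 at D7 (log2 fold change 1.66, adjusted p = 0.0172). By R7 its EDL level was 51.4, 42.9 and 32.99 CPM, and its soleus held 56.6, 61.6 and 58.8 CPM in the controls and 106, 105 and 150.0 at R7. The D3 number was 12 of 194 (8 higher and 4 lower) without the D3 rat U11, 0 without control U7 and 2 without any 1 of the other 4 libraries. Over all peaks it was 650 of 9417 without U11, 5 of 9477 without control U7 and 30 to 54 without the others. At D7 2 peaks were called in either direction, beside 1.04% of all peaks, the one at chr7:83348578-83348798 and the one at chr12:22478763-22478801. This number was 0 without control U6 or U8 or the D7 rat U1, and 1 without control U7 or the D7 rat U3. Over all peaks it was 97, and 9, 28 and 19 without U6, U8 and U1, and 26 and 54 without U7 and U3. With the lane term over 42 libraries 0 were called at D3 and at D7, and 0 of all 9944 peaks as well. In 13 of the 236 peaks (5.51%) every EDL D7 library lay below every EDL control, beside 3.87% of all peaks, and these 13 came from 7 places.

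The muscles of the R3 rats were compared directly. Neither group entered the rule, but the rule removed peaks whose control levels differed strongly between the muscles, so the shares of selected and of all peaks called here are not on the same footing. By edgeR over all 42 libraries 16 of 231 selected peaks, in 12 runs counted in the same way, were called higher and 3 lower in soleus than in EDL at R3, beside 5.54% of all peaks higher and 6.37% lower. With the rat as a block, which pairs the muscles, 25 were called, 22 of them higher, beside 6.51% of all peaks higher. The number called in either direction without the block was 8 without the soleus of U4, 31 of 234 without the EDL of U4, 7 without the EDL of U5 and 8 without the EDL of U16, and it was 5 with the lane as a term. Over all peaks 1184 of 9944 were called with all libraries. It was 1032, 1516 of 9958, 983 and 1023 with these libraries left out in the same order, and 1026 with the lane term. On the minus strand at chr2:61924796-61925180 soleus held 11.3, 3.501 and 3.96 CPM and EDL 0.2596, 0.262 and 0 CPM in U4, U5 and U16 (log2 difference 4.66, SE 1.01, edgeR adjusted p = 0.000959), higher in soleus in every rat. The reverse held on the minus strand at chr9:73940415-73940569, with 96.6, 60.3 and 160.5 CPM in soleus and 243, 355 and 344 in EDL (log2 difference -1.87, SE 0.378, edgeR adjusted p = 0.000378). Whether soleus and EDL differed in how far R3 lay from control was tested as an interaction, which was called in 0 of 231 peaks by edgeR, with and without the block, and in 0 by DESeq2. EdgeR called 0 of all 9944 peaks as well. At an unadjusted p under 0.05 it was 1 selected peak, beside 3.41% of all peaks. It was 8 without the EDL of U4, where the median log2 difference went from 0.08 to 0.72, and 1 to 5 with any other library left out. Over all peaks it was 418 of 9958 without the EDL of U4 and 239 to 371 with any other library left out. This test uses the controls of both muscles, which the rule also used.

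Most of the selected peaks lay apart, and 62 of the 236 lay in rows. Joining peaks on 1 strand less than 20 kb apart gave 191 runs, of which 174 were single peaks, 9 pairs and 8 longer. The longer ones held 44 peaks, 31 of them in 4 runs of 5 or more, and 49 of the 236 peaks lay within 1 kb of another. The closest pair, chr2:143687317-143687383 and chr2:143687403-143687903 on the plus strand, was 19 nt apart. Its first peak held 0.144, 1.21 and 0.293 CPM in the soleus controls and 23.97, 6.46 and 0.252 at R7, and its second 0.216, 2.95 and 0.879 and 22.5, 10.6 and 0.252, with the rats in the same order. Neighbours of 1 run are not independent of each other, and whether a run belongs to 1 gene was not tested.

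The largest run had 12 peaks on the plus strand at chr10:82747446-82760341. Their summed level in soleus was 1.44, 13.7 and 5.86 CPM in the controls, 1.97, 0.804 and 0.295 at D7, 5.74, 5.01 and 4.13 at R1, 14.3, 5.18 and 49.7 at R3 and 85.2, 32.8 and 3.02 at R7. In EDL it was 2.899, 45.7 and 5.02 CPM in the controls, 47.5, 12.9 and 346 at D1, 2.395, 0.324 and 0.978 at D7 and 28.8, 17.5 and 78.8 at R7. The mean was lowest at D7 in both muscles, and the EDL of U26 at D1 held more than any soleus library. A peak that the rule left out lay upstream on the same strand at chr10:82745711-82745952. It was far stronger than the whole run, with 50.4, 379.7 and 177 CPM in the soleus controls and 6835, 1251 and 93.4 at R7, and it failed the rule because its r of unloading was 1.95.

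A run of 7 peaks on the plus strand at chr10:53635788-53642371 behaved differently. Its summed soleus level was 3.52, 8.301 and 12.2 CPM in the controls, 2.63, 1.15 and 2.95 at D7, 0.942, 0.365 and 1.19 at R1, 25.6, 6.93 and 76.04 at R3 and 130.3, 180.0 and 16.6 at R7. U13 was above U12 here, and U19 was above all controls. The r of its peaks ran from 5.10 to 11.1, and its strongest ratio, chr10:53641067-53641189, held 0.719, 1.07 and 2.93 CPM in the controls and 36.9, 41.96 and 3.52 at R7. At chr10:53636857-53636988 it held 0.431, 1.34 and 0.879 and 19.1, 26.2 and 3.78 CPM, all R7 rats again above all controls. EDL was low, with 0.187, 0.698 and 0.201 CPM in the controls and 1.23, 0.203 and 0.4197 at R7, but 10.03, 9.404 and 6.603 at D7. At R3 3 of these peaks were among those called higher in soleus than in EDL, for example chr10:53641067-53641189 with 7.81, 2.02 and 17.8 CPM in soleus and 2.596, 0 and 0.338 in EDL (log2 difference 2.88, SE 0.987, edgeR adjusted p = 0.0416).

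On the plus strand at chr2:143668597-143687903 another 7 peaks summed to 0.647, 10.2 and 2.05 CPM in the soleus controls, 5.304, 1.41 and 19.5 at R3 and 147, 42.4 and 1.51 at R7. Its highest r, 11.1, was at chr2:143673782-143673867, with 0, 2.01 and 0 CPM in the controls and 43.7, 8.51 and 0.503 at R7. In the sum U12 and U13 were above every control and U19 was not, and EDL held 4.53, 1.22 and 0.671 CPM at R7. A stronger peak upstream at chr2:143656622-143656940 held 7.98, 118 and 52.2 CPM in the soleus controls and 2176, 610.4 and 15.6 at R7, and it was left out for its muscle ratio of 11.9. The 5 peaks on the plus strand at chr9:52042821-52059186 summed to 3.31, 26.8 and 11.1 CPM in the soleus controls, 46.997, 8.15 and 93.4 at R3 and 145, 44.7 and 8.05 at R7. In EDL they summed to 2.43, 7.68 and 2.81 CPM in the controls, 22.4, 30.6 and 32.7 at D1, 2.99, 1.297 and 1.39 at D7 and 25.1, 21.2 and 7.39 at R7, so that every D1 and R7 library was above every D7 library. A run of 4 peaks on the plus strand at chr15:4070933-4073978 had 49.4, 55.8 and 45.9 CPM in the soleus controls, 26.7, 22.5 and 19.2 at D7, 60.1, 48.8 and 66.6 at R3 and 69.6, 167 and 69.7 at R7. At R7 all rats, U19 included, were above all controls, and U13 was the highest.

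**Figure D5:**
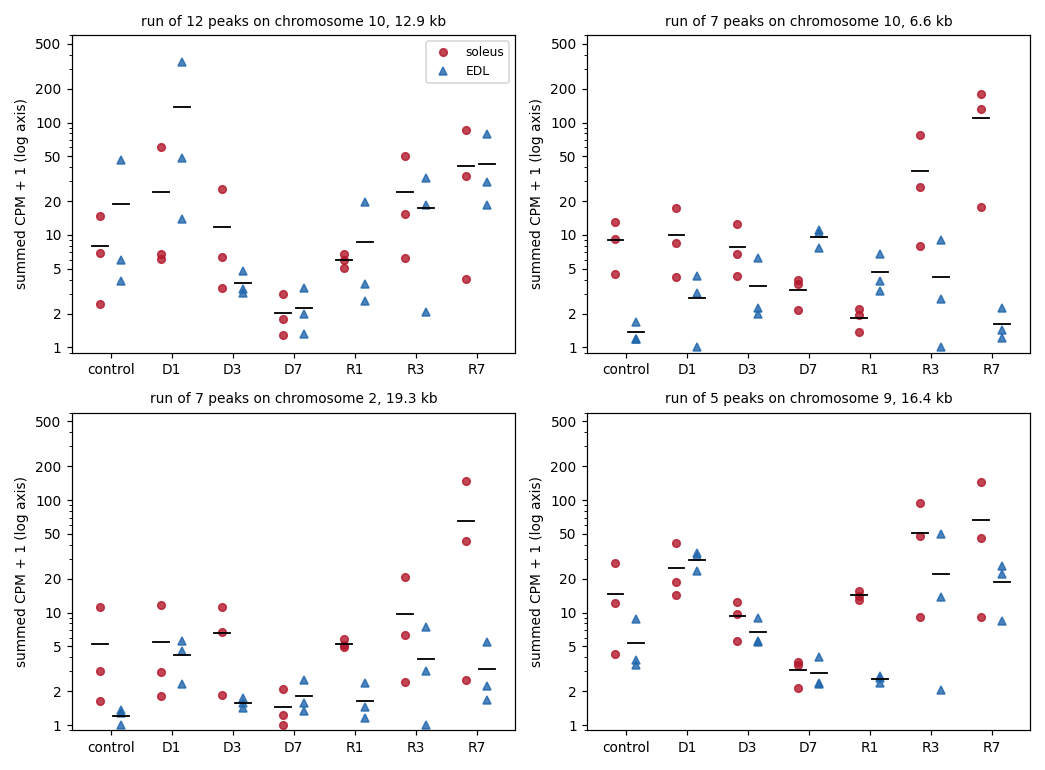
Summed CPM + 1, on a log axis, of the selected peaks in the 4 runs of 5 or more, for every library; circles are soleus and triangles EDL, bars the mean of 3 rats. In soleus R7 the run of 12 peaks lies between 3.02 and 85.2 CPM and the run of 7 peaks on chromosome 10 between 16.6 and 180 CPM, where the EDL R7 libraries hold at most 1.23 CPM.

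Some of the selected peaks had a neighbour that was also high at R7 but was left out by another condition of the rule. For 23 of the 191 runs, which held 63 of the 236 peaks, another peak with R7 at least 75% above control lay within 20 kb on the same strand, and in 18 of them it was stronger at R7 than every selected peak of the run. The strongest of these neighbours exceeded the limit for R1 at 12 runs and that for unloading at 5, and lay outside the range of the muscle ratio at 9.

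Some of the selected peaks may share reads. The counts of each of the 206 peaks with at least 500 tags were compared with those of other peaks of similar total, farther than 100 kb away, by a chi-square test over the libraries, and the positions of the tags around the dominant start were aligned. There were 27 aligned pairs whose counts this test did not tell apart at a p of 0.01, 8 of them between selected peaks, and 13 selected peaks were involved. The clearest pair was chr4:29529581-29529875 and chr4:31533822-31534246, both on the plus strand, with 578, 192 and 22.4 CPM in the first and 585, 187 and 21.1 CPM in the second at soleus R7. Pairs of this kind also lay at chr17:14626648-14626941 and chr17:15467161-15467457, at chr15:5265211-5265405 (plus strand) and chr15:5894723-5894918 (minus strand), and at chr7:94847023-94847216 and chr7:95054836-95055071. The narrow peaks chr17:7056077-7056112, chr6:6107613-6107666, chr9:34876032-34876072 and chr2:72867609-72867680, on several chromosomes, matched each other or peaks outside the selection. Reads could map to up to 20 loci, so the place and the level of these 13 peaks are uncertain.

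The rule used no feature of shape or position. The median width of the selected peaks was 179 nt, compared with 207 nt over all peaks, and 54 of them (22.9%, compared with 13.6%) were at most 100 nt wide. The widest, at chr2:11818982-11822855, spanned 3874 nt. Another peak of the same strand lay within 1 kb of 25.8% of them and of 18.5% of all peaks, and a peak of the other strand within 1 kb of 7.20% and 11.4%. Chromosome 10 carried 38 of the 236 (16.1%, compared with 8.80% of all peaks), 19 of them in the 2 runs given above. Weak peaks were favoured by the choice, and whether this accounts for the widths was not tested.

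The position of the starts within a peak was mostly kept. Of the 232 peaks with tags in both groups, 162 (69.8%) had the same dominant start position in the pooled control and the pooled R7 soleus. Among the 79 peaks with at least 20 tags in each of these libraries, 69 (87.3%) had the same position and 76 lay within 10 nt. The median share of the tags at the dominant start was 24.4% in the controls and 23.7% at R7, and the median width holding 80% of the tags was 50.5 and 53 nt. The exception beyond 100 nt among the 79 was chr9:82415642-82416649 on the minus strand, a peak of 1008 nt in which the dominant start held 4.47% of 403 control tags and 4.598% of 609 R7 tags, 339 nt apart.

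Tags on the opposite strand were scarce. Within 400 nt upstream, at least 1 CPM of opposite-strand tags was present in the R7 soleus for 14 of the 236 peaks (5.93%), compared with 10.6% of all peaks. In the controls it was 12 (5.08%, compared with 11.4%). With 1000 nt it was 18 at R7 (7.63%, compared with 14.1%). The ratio of these tags between R7 and control, each with 1 CPM added, was at least 75% above 1 at 5 peaks (2.12%, compared with 0.431% of all peaks) within 400 nt and at 9 (3.81%, compared with 0.702%) within 1000 nt. At 3 of the 5 the 400 nt held a selected peak of the other strand, so these tags can belong to peaks that the rule chose, and nothing is read from the shares. Of the 5, 3 lay on chromosome 15 within 4 kb of each other. At chr15:4073409-4073978 the opposite strand held 3.02, 2.01 and 3.37 CPM in the controls and 14.7, 11.2 and 7.05 CPM at R7, all R7 rats above all controls.

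Peaks on both sides of the threshold had like levels. Just inside, chr8:97439046-97439242 (plus strand) held 25.9, 45.5 and 38.7 CPM in the soleus controls and 111, 52.2 and 31.5 at R7, and chr9:34876032-34876072 (minus strand) 5.53, 6.16 and 4.25 and 10.9, 10.5 and 8.81. Just outside, chr10:25908977-25909197 (minus strand) held 4.81, 3.75 and 6.01 and 7.27, 11.6 and 8.81 CPM, and chr10:40375512-40375719 (minus strand) 64.6, 58.4 and 52.9 and 136, 126 and 48.1.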

How the data were processed

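The authors made nAnT-iCAGE libraries from total RNA, trimmed the reads with Trimmomatic, mapped them to Rnor_6.0 with up to 20 loci per read (STAR in the methods, while the submitters' processing notes list BWA and HISAT2) and gathered 5′ ends into CTSS and peaks. They deposited raw counts of tags per CTSS for each library and raw counts over 9971 peaks for the series; 42 normalized columns were not used. Libraries held 1778712 to 23103236 tags, 3.20% to 10.7% of them mitochondrial.

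The peaks, comparisons and settings were chosen with earlier results of these data known. CPM used column sums without the 2 mitochondrial peaks. Raw counts of all peaks were tested with edgeR 4.0.16 (R 4.3.3; quasi-likelihood test, filterByExpr, TMM, Benjamini-Hochberg), 21 libraries of a muscle in 1 fit or all 42 between muscles; a peak was called at adjusted p under 0.05 and a change of more than 2.38-fold. SE is the log2 fold change over the root of F. The test was tried on simulated counts. DESeq2 1.42.0, unnormalized and unfiltered counts, a lane term and left-out libraries were alternatives; Python 3.11.15 did the rest. Peaks were named by rule: the 8 highest r among those with at least 10 CPM at R7, the 8 highest means at R7, called R3 peaks, the 4 highest and 2 lowest EDL differences between R7 and D7 with at least 5 CPM in either group, the 2 on each side of the threshold, and the closest pair. Other peaks, such as those called in EDL or between muscles, the runs and peaks led by 1 rat, were named after their values were seen. The rat number pairs the muscles: deviations of both muscles from their group means correlated with r from -0.378 to 0.548 (median 0.249), over 0.1 in 15 of 21 rats.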

Additional observations from a re-analysis of the deposited data

How the results depend on the processing

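The selection depended on single rats and on the scale. The rule gave 124 to 354 peaks with each soleus R7 or control library left out in turn, 124 of them without U12 (99 shared with the 236), 238 without U13 (206) and 354 without U19 (227). It gave 341 with TMM factors (225 shared), 268 with the tag totals (210), 222 with medians (153), 186 with a pseudocount of 0.1 (161) and 212 with 5 (137), and 252 (229) with the mitochondrial peaks in the column sum, an alternative chosen after seeing the data.

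The numbers of selected peaks called were small and moved with the tool and the lane. For soleus R3 against control (2 called) they were 0 without normalization factors, 0 without the filter and 12 with DESeq2. For EDL R7 against D7 (1) they were 2 without normalization factors, 16 with DESeq2 and 0 with a lane term. The all-peak numbers were 71 in the main fit and 70, 219 and 2 in these settings. For EDL R3 against D7 (0) they were 4 with DESeq2 and 1 with a lane term, where the all-peak numbers were 111 and 8, beside 18 in the main fit. Against the EDL controls, DESeq2 gave 2 at R3 and 1 at R1 (0 each), 10 at D3 (4) and 4 at D7 (2), and without normalization factors the numbers were 4 at D1 (11) and 1 at D7. Over all 9969 peaks DESeq2 called 89 at R3, 26 at R1, 284 at D3 and 218 at D7. Without normalization factors 169 of all 9341 peaks were called at D1 and 115 at D7. With the lane term in a fit over 42 libraries, chosen after seeing the data, 0 were called in soleus R3 against control, EDL R7 against D7 and EDL D1, D3 and D7 against control, and the median log2 fold change of soleus R3 went from 0.92 to 0.06 and that of EDL R7 against control from 0.57 to -0.18. The cause was not tested.

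Leaving out single libraries gave 0 to 2 called peaks for soleus R3 against control, 0 to 2 for EDL R7 against D7, 0 to 4 for EDL R3 against D7, 0 to 1 for EDL R3, 0 to 15 for EDL D1, 0 to 12 for EDL D3 and 0 to 2 for EDL D7 against control, and 7 to 31 for soleus against EDL at R3. It was 0 throughout for EDL R1 and R7 against control and for the difference between the muscles in the R3 change. The numbers over all peaks moved as well, for example between 5 and 650 for EDL D3 and between 983 and 1516 for soleus against EDL at R3.

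Between soleus and EDL at R3, the fit with the replicate block, the rat that pairs the muscles, called 25 peaks (19 without it), and a lane term 5. For the difference between the muscles in the R3 change the block fit called 0, as did the fit without it. The start position share at R7 was 27.6% among the 79 deeper peaks, compared with 23.7% over 232.

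Alternatives were run for every selected peak called in a tested comparison and for the 4 highest and 2 lowest EDL differences between R7 and D7. Of these, chr12:22478763-22478801 at EDL D7 against control changed its direction, with a log2 fold change of 0.13 under the lane term over 42 libraries (-2.10 without it). The median SE of the selected peaks in this comparison was 1.57 with the term and 0.65 without it. The cause was not tested. Both peaks called at soleus R3 missed the threshold without normalization factors, without the filter, with the lane term over 42 libraries and without any control or the R3 rats U4 or U5. Their log2 fold changes (1.41 and 1.27) were 1.53 and 1.39 without normalization factors, 1.41 and 1.27 without the filter, and 1.11 (SE 1.19) and 0.94 (SE 0.998) with the lane term. Depth limits the weak peaks: 145 had under 5 CPM in the soleus controls, and the lowest EDL library held 1778712 tags.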
